A study of Mus musculus with 4 samples.

Results

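The level of each protein-coding RNA in the methyladenosine immunoprecipitate was set against its level in the input RNA of mouse liver. The liver samples came from 4 groups on a C57/Bl6 background: wild-type immunoprecipitate, wild-type input, Fto knockout immunoprecipitate and Fto knockout input. Each label states 3 replicates and names liver biopsy as the tissue; the labels do not state age, knockout allele or whether replicates were separate animals. The deposited tables give 1 mean per feature, which was taken to average the scaled read counts of both genotypes. All values below therefore pool wild-type and knockout liver, and no genotypes are compared. Members were the protein-coding names present in both tables with an input mean of 10 or more, each represented by its transcript with the highest immunoprecipitate mean. There were 3298 such genes among 12374 protein-coding names of the input table and 4802 of the immunoprecipitate table. The measure was the log2 ratio of the immunoprecipitate mean to the input mean. The tables were scaled separately, so a ratio says nothing by itself about how much of an RNA is methylated, and only differences between genes are read.

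N6-methyladenosine (m6A) is placed on mRNA in the nucleus by a complex around the enzyme pair Mettl3 and Mettl14, mainly in long internal exons and near stop codons, and is read by YTH-domain proteins that steer splicing, translation and decay. A related mark, N6,2'-O-dimethyladenosine (m6Am), sits at the first transcribed base when that base is an adenosine, where the cap-bound enzyme Pcif1 adds the N6 methyl group. The antibody used in miCLIP binds both marks, and Fto is a demethylase that acts on both. In miCLIP the antibody is crosslinked to RNA fragments, which are then cloned as sequencing libraries.

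Liver identity was clear in the input. All 12 hepatocyte markers looked for were measured at an input mean of 10 or more, with a median input mean of 5408, while 1 of 12 lymphocyte markers (Ptprc, 44.1) and 5 of 9 erythroid and neutrophil markers were. Of 18 macrophage markers 16 were measured, with a median input mean of 71.4. All 14 endothelial markers (median 83.1), 11 of 12 stellate cell and fibroblast markers (73.2) and 2 of 6 cholangiocyte markers (39.5) were measured as well. Hepatocyte markers thus stood apart from endothelial ones by level and not by the number measured. In bulk tissue fewer cells of a type and less RNA per cell cannot be told apart.

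Immunoprecipitated mRNA was sparse and followed the input level only loosely. The members had a median immunoprecipitate mean of 5.03 normalized reads, with quartiles at 3.11 and 9.01, against a median input mean of 63.4. The median log2 ratio was −3.72, with quartiles at −4.91 and −2.55 and a range from −11.00 to 4.17. An immunoprecipitate mean of 10 or more was reached by 717 members. Across the members the Spearman correlation of both means was 0.325 (3298 genes, which are not independent replicates and whose values share their libraries). The scatter of immunoprecipitate against input means shows a broad band that is almost flat at low input and turns upward only among the most abundant RNAs.

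**Figure D1:**
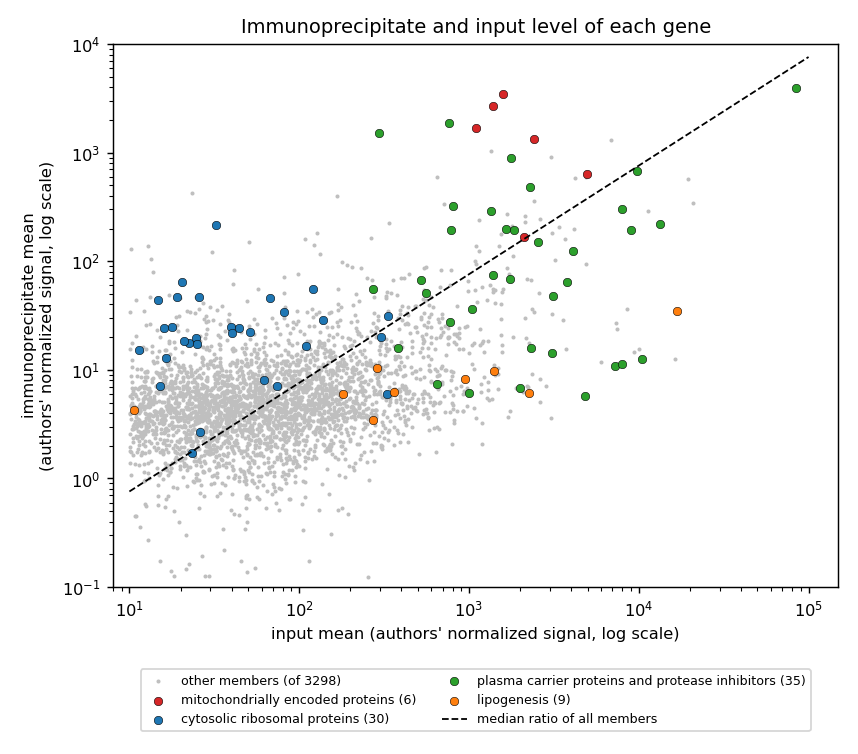
Immunoprecipitate mean against input mean for 3298 genes, both in the authors' normalized signal on log axes, with 4 gene lists coloured and the median ratio as a dashed line. Mitochondrially encoded and ribosomal protein genes lie mostly above the line, and genes of lipogenesis, 8 of 9 of them, lie below it.

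Most input genes had no row in the immunoprecipitate table, and how many did depended on the input level. Of 9108 input names at a mean of 10 or more, 3298 joined an immunoprecipitate row, a background share of 36.2%, and 5810 did not. That leaves 63.8% without a row (exact 95% binomial interval 62.8% to 64.8%, which covers counting over genes only). The share with a row was 26.9% at input means from 10 to 30, 33.2% from 30 to 100 and 48.9% from 100 to 300. It was 66.8% from 300 to 1000 and 85.2% from 1000 to 3000. Of 32 genes from 3000 to 10000 only 1 lacked a row, and all 9 genes above 10000 had one. The labels do not state what put a feature into the table, so a gene without a row is treated as not measured and never as unmethylated.

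The ratio fell with input level over the lower levels and then levelled off. The median log2 ratio was −2.14 at input means from 10 to 30, −3.61 from 30 to 100, −4.74 from 100 to 300 and −5.79 from 300 to 1000. Above that it was −5.93 from 1000 to 3000, −5.85 from 3000 to 10000 and −5.92 at 10000 and over. Over the first 4 of these levels the median input mean rose 25.9-fold and the median immunoprecipitate mean 2.18-fold, from 4.17 to 9.08. Weakly expressed members are those few of their level that have a row, and the part of this in their high ratios was not tested. Each ratio is also given relative to the median of members at the same input level, called the level-relative ratio.

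**Figure D2:**
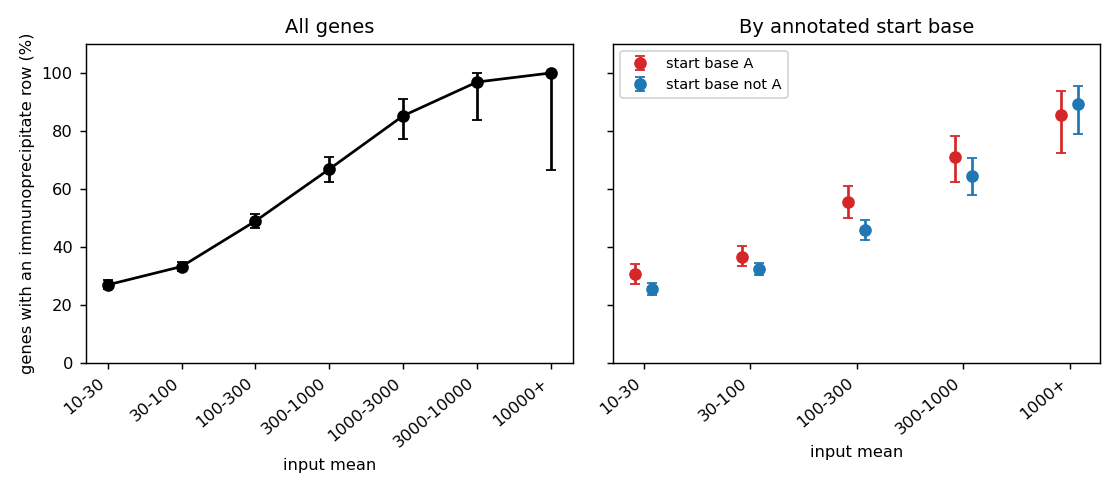
Share of input genes with an immunoprecipitate row by input mean, for all genes (left) and by annotated start base (right), with exact 95% binomial intervals as bars. The share climbs from 26.9% to 100%, and genes starting with A lie above the others at each level under 1000.

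The only sign of replicate error is the authors' standard error of the genotype log2 fold change, which belongs to a difference between groups and not to these ratios. In the authors' deposited table its median in the immunoprecipitate was 3.79 for members with immunoprecipitate means under 3, 2.67 from 3 to 10 and 2.12 from 10 to 30. It was 1.63 from 30 to 100 and 0.76 at 100 and over, where 63 members lie. In the input it was between 0.24 and 0.27 at all of these levels. Ratios of members with few immunoprecipitate reads are therefore the least certain. At the input minimum, the members just inside were Akap7 (input mean 10.03, log2 ratio −1.97), Mettl11a, now Ntmt1 (10.1, −2.50) and Sox9 (10.1, −2.38). Just outside were Bcam (9.95, 1.15), Bicc1 (9.94, −2.81) and 1700019G17Rik, now Nat8f4 (9.94, −1.03).

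Among the most abundant RNAs, where nearly all genes had a row, immunoprecipitate levels still differed over a very wide range. Of 156 genes with an input mean of 1000 or more, a limit chosen after the values were seen, 138 had a row (88.5%, exact 95% binomial interval 82.4% to 93.0%). Their log2 ratios had a median of −5.92, quartiles at −7.79 and −4.23, and extremes of −10.34 and 1.14, a span of 11.48. Here the ratio barely depended on the input mean (Spearman −0.14 across 138 genes). In the authors' deposited table the standard error of the genotype fold change was 0.66 for the gene at the top, named mt-Nd6, and 1.77 for the gene at the bottom, C3.

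The secreted plasma proteins of hepatocytes occupied both ends of this range. Albumin, the main plasma carrier, had an input mean of 84262 and an immunoprecipitate mean of 3971, a log2 ratio of −4.41. The complement component C3 had 16423 in the input and 12.6 in the immunoprecipitate, a log2 ratio of −10.34. Haptoglobin (Hp), which binds free haemoglobin, had 10434 and 12.6 (−9.69), and transthyretin (Ttr), a thyroid hormone carrier, had 7933 and 11.4 (−9.44). The vitamin D carrier Gc stood at 7212 and 10.9 (−9.37), and vitronectin (Vtn) at 4819 and 5.71 (−9.72). All of these lay far below albumin although their RNAs are made by the same cells.

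The fibrinogen chains, which form the clot, were low together. Fga had an input mean of 10068 and an immunoprecipitate mean of 15.6 (log2 ratio −9.34), Fgb 8473 and 36.7 (−7.85) and Fgg 7329 and 26.7 (−8.10). At the other end, transferrin (Trf), the iron carrier, had 2278 and 478 (−2.25). The light chain of class I antigen-presenting molecules, B2m, had 1339 and 1045 (−0.36), and the class I heavy chain gene H2-K1 had 1140 and 240 (−2.25).

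Apolipoproteins, the protein parts of lipoprotein particles, also differed widely among themselves. Apoc1 had an input mean of 3028 and an immunoprecipitate mean of 920 (log2 ratio −1.72), and Apoa2 had 6830 and 1307 (−2.39). Apoa1, which like Apoa2 is a main protein of high-density lipoprotein, had 7423 and 23.6 (−8.30), so the pair had similar input means and very different immunoprecipitate means. Apob, the protein of very-low-density lipoprotein, had 20818 and 345 (−5.91), and Apoe 19543 and 573 (−5.09). In the authors' deposited table the standard errors of the fold change were 0.54 for Apoa2, 1.82 for Apoa1 and 0.59 for Apob.

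**Figure D3:**
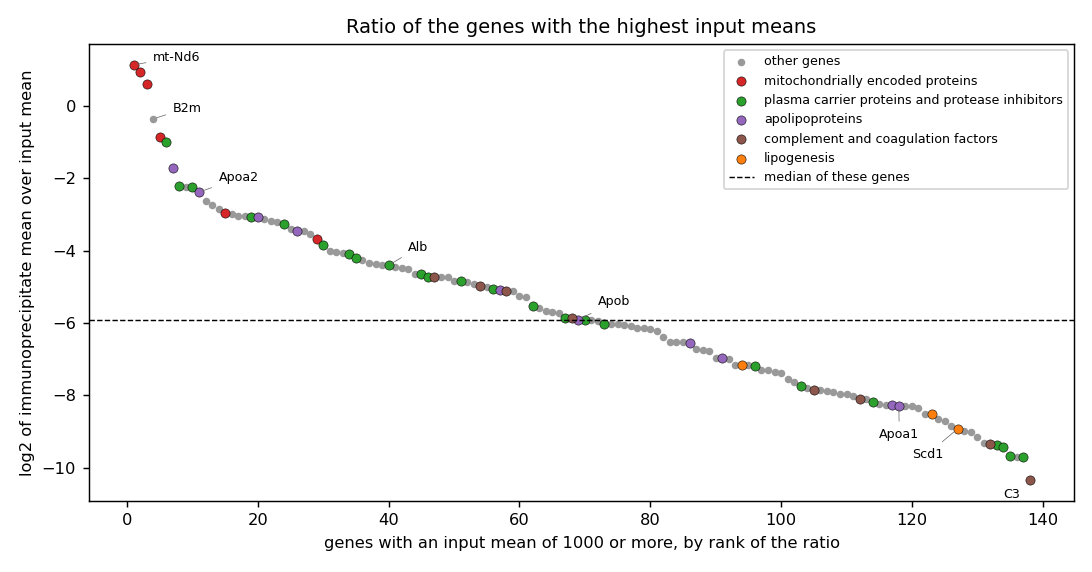
Log2 ratio of immunoprecipitate mean over input mean for the 138 genes with an input mean of 1000 or more, ranked, with 5 gene lists coloured and their median as a dashed line. Plasma carriers and inhibitors run from −0.999 for Serpina1e to −9.72 for Vtn, and the complement gene C3 is lowest at −10.34.

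Some highly expressed genes had no immunoprecipitate row at all. Among those with the highest input means were Pck1, which commits carbon to glucose synthesis (2380), and the alcohol dehydrogenase gene Adh1 (2258). Others were the growth factor receptor gene Egfr (1818), Akr1c6 (1765), the ATP synthase subunit gene Atp5a1 (1734) and the chaperone gene Hsp90b1 (1502). Fbp1, the fructose bisphosphatase of glucose synthesis (1414), Cyb5, now Cyb5a (1397) and Saa1, an acute-phase apolipoprotein (1378), had none either. Of the 3 glucose genes with an input mean of 1000 or more (Pck1 and Fbp1 among them), 0 had a row, against 138 of 156 genes at that level. Pck1 and Fbp1 were named for lacking a row, and that limit was chosen after the values were seen. Over all input levels, glucose output and glycolysis genes had a row in 11 of 26 cases, against 13.8 at the shares of their levels. Saa2, a close copy of Saa1, had 644 in the input and 595 in the immunoprecipitate (−0.11), and reads of such a pair can be split in either table.

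The 12 genes with the highest ratios, among members with an immunoprecipitate mean of 10 or more, had mostly low input means. In order they were AC116841.11 (now Gm5096, 4.17), the globin gene Hba-a2 (3.65), RP23-163F11.3 (now Mup16, 3.44), the red cell ankyrin Ank1 (2.96), the ribosomal protein gene Rpl36al (2.73) and Mup1 (2.54). Then came the antitrypsin gene Serpina1a (2.36), EG639281 (now Gm10382), the Fc receptor chain genes Fcer1g (1.99) and Fcgr4 (1.83), the lipid flippase Atp8b2 (1.76) and the ribosomal protein gene Rps25 (1.65). Copies or pseudogenes of the globin, Mup, Serpina1 and ribosomal protein genes share sequence, so these ratios are uncertain. The share of such families among all members was not computed. Ank1 stood 6.68 above the median of members by its highest of 7 transcripts and 0.65 above by their median, so its place rests on the choice of transcript. Of the 12, 11 had input means between 10.1 and 32.4. The exception was Serpina1a, with 294 in the input and 1503 in the immunoprecipitate. Its relatives were also high: Serpina1c had 762 and 1864 (1.29), Serpina1e 1767 and 885 (−0.999) and Serpina1b 1343 and 288 (−2.22). Over all members the share at 4-fold or more above their median ratio was 12.2%, and at 4-fold or more below it 13.9%.

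The lowest ratios on the same footing belonged to abundant liver RNAs, and the 11 given here had input means of 5974 and over. The minimum on the immunoprecipitate mean forces a high input mean on any very low ratio, so their abundance is not a separate finding. Among all members, without that minimum, the lowest ratio was −11.00, at an input mean between 100 and 300. C3, Hp, Ttr, Gc, Fga, Apoa1, Fgg and Fgb are given above. The others were Cyp2e1, the alcohol-inducible P450 (−9.32), the selenium carrier gene Sepp1, now Selenop (−8.99) and the desaturase Scd1 (−8.93). Cyp2e1 had an input mean of 9351 and an immunoprecipitate mean of 14.6, and Scd1 16874 and 34.7.

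Mitochondrially encoded mRNAs had high ratios at high input. All 6 measured at an input mean of 10 or more had a row, against 5.23 at the shares of their input levels, and 4 of 6 lay 4-fold or more above the median of all members, against 12.2% of all members and 0.338 genes at the shares of their levels. Their median log2 ratio was −0.12, which was 3.60 above all members and 5.82 above members at the same input levels. mt-Nd2, a complex I subunit, had 1391 in the input and 2690 in the immunoprecipitate (0.95), mt-Nd4 1097 and 1684 (0.62) and mt-Nd1 2399 and 1328 (−0.85). The name mt-Nd6 stood at 1589 and 3497 (1.14), but it covers 2 input genes, and the one used is mt-Nd5 by its identifier. These genes overlap on opposite strands, and the strand rule of the counting is not given. mt-Co1, a cytochrome oxidase subunit (4954 and 637, −2.96), and mt-Cytb of complex III (2116 and 166, −3.67) were lower. The standard errors of the fold change in the authors' deposited table ran from 0.51 (mt-Nd4) to 0.96 (mt-Co1). Nuclear genes for the same respiratory chain had a row in 39 of 70 cases, against 31.1 at the shares of their input levels, with a median log2 ratio of −3.72 and a level-relative median of 0.46. Atp5h was highest (22.9 and 34.0, 0.57) and Sdha, a complex II subunit, lowest (920 and 4.22, −7.77).

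Cytosolic ribosomal protein genes, which are short and very actively translated, were a large group with high ratios. Of 49 measured 30 had a row, against 16.8 at the shares of their input levels, and 21 lay 4-fold or more above the median of members (5.84 at the shares of their levels) and 1 lay 4-fold or more below (2.83, and 13.9% of all members). Their median log2 ratio was −0.78, which was 2.94 above all members and 2.40 above members at the same input levels, and 28 of 30 were above their level median. Rpl36al had 32.4 in the input and 215 in the immunoprecipitate (2.73), Rps25 20.3 and 63.7 (1.65), Rpl38 14.7 and 43.5 (1.56) and Rpl10 19.2 and 46.5 (1.28). Rpl8 was lowest (327 and 6.00, −5.77). No row joined for Rplp0 (170) or Rpl13a, which the table names Flt3l (128).

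Many ribosomal protein genes have processed pseudogenes that can share their reads, and their input means were low for such RNAs, with a median of 25.7. Those with a RefSeq pseudogene named after them (the gene name with -ps) had a row in 22 of 37 cases (59.5%, against 30.4% at the shares of their levels), with a median 3.27 above all members and a level-relative median of 2.49. Those without had one in 8 of 12 cases (66.7%, against 46.0%), with a median 0.65 above all members and a level-relative median of 2.20. Among other genes, 161 with such a pseudogene had a row in 43.5% of cases, against 36.1% at the shares of their input levels, and a median level-relative ratio of 0.55. The part of shared reads in these ratios was not tested.

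Replication-dependent histone genes, whose mRNAs end in a stem-loop in place of a poly(A) tail, were high as well. Of 7 measured 6 had a row, against 2.36 at the shares of their levels. Of these, 5 lay 4-fold or more above the median of members (0.882 at the shares of their levels and 12.2% of all members), with a median level-relative ratio of 2.30. Hist1h4c had 28.4 in the input and 27.6 in the immunoprecipitate (−0.05), Hist1h4d 31.1 and 29.1 (−0.10) and Hist1h1c, a linker histone, 175 and 28.7 (−2.61). Hist1h4h (30.7) had no row. Histone copies are nearly identical, so single values are uncertain.

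Plasma carriers and protease inhibitors had a row in 35 of 37 cases (30.2 at the shares of their levels). Their median lay 0.94 below that of all members and 1.21 above members at the same input levels, so its direction depends on that reference, with 4 at 4-fold or more above (1.18 at the shares of their levels) and 12 at 4-fold or more below (17.9). Complement and coagulation factors had a row in 25 of 32 cases (21.5 at the shares of their levels), with a median level-relative ratio of 0.40, 0 at 4-fold or more above and 10 at 4-fold or more below (11.2 at the shares of their levels). Apolipoproteins had one in 14 of 16, near the 13.3 at the shares of their levels, with a median level-relative ratio of 0.42. Cytochrome P450 genes, the oxidases of drug, steroid and bile acid metabolism, had one in 34 of 45 (24.0 at the shares of their levels), with a median level-relative ratio of 0.55 and values from −9.32 (Cyp2e1) to 0.68 (Cyp3a59).

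**Figure D4:**
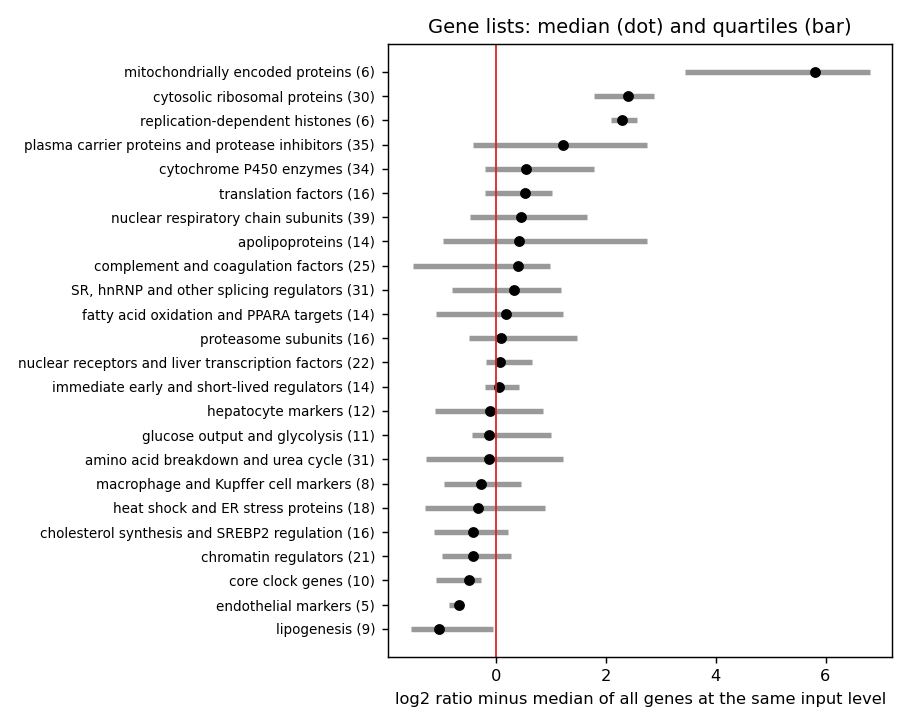
Level-relative log2 ratio of the 24 lists with 5 or more members in both tables, as the median (dot) and quartiles (bar), with the number of members in brackets. Mitochondrially encoded, ribosomal protein and histone genes lie highest, and lipogenesis lies lowest at −1.04.

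Genes of lipid synthesis were low against both references, but they were not alone in this. Chromatin regulators (−0.90 against all members, −0.42 level-relative), core clock genes (−0.99 and −0.48) and endothelial markers (−0.50 and −0.67) were too. So were heat shock and ER stress proteins (−1.37 and −0.33) and macrophage markers (−0.84 and −0.27). Amino acid breakdown (−1.97 and −0.13), glucose genes (−0.59 and −0.12) and hepatocyte markers (−2.32 and −0.10) were also below both, though close to their levels. Of the 24 lists with 5 or more members, 14 had level-relative medians above 0. In lipogenesis 9 of 20 had a row (12.1 at the shares of their levels), and 6 of the 9 lay 4-fold or more below the median of members (3.31 at the shares of their levels), with a median level-relative ratio of −1.04. Scd1 is given above. Fasn, the fatty acid synthase, had 2252 in the input and 6.12 in the immunoprecipitate (−8.52), and Acly, which supplies its acetyl-CoA, 1400 and 9.71 (−7.17). Pnpla3 was highest (10.6 and 4.27, −1.31). Gpam (811), Elovl5 (697) and Thrsp (515) had no row. In cholesterol synthesis 16 of 27 had a row (14.5 at the shares of their levels), 10 lay 4-fold or more below the median of members (4.97 at the shares of their levels), and the median level-relative ratio was −0.42. Pmvk, of the mevalonate pathway, was the highest (106 and 16.2, −2.71).

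Other metabolic lists sat near the members at their own input levels. Fatty acid oxidation and PPARA target genes had a row in 14 of 33 cases, fewer than the 18.9 of their levels, with a median level-relative ratio of 0.18. Acaa2, a thiolase, was the lowest (1304 and 5.25, −7.96). Amino acid breakdown and urea cycle genes had a row in 31 of 50 (33.3 at the shares of their levels), with a median level-relative ratio of −0.13. The urea cycle enzyme Cps1 had 11363 in the input and 291 in the immunoprecipitate (−5.29), and Oat, ornithine aminotransferase, 1745 and 4.18 (−8.70). Glucose output and glycolysis genes had a row in 11 of 26 (13.8 at the shares of their levels), with Ldha highest (378 and 48.5, −2.96).

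Regulators, whose mRNAs are often described as m6A-rich, did not have high ratios as groups. Nuclear receptors and liver transcription factors had a row in 22 of 44 (19.2 at the shares of their levels), with a median level-relative ratio of 0.08. Hnf4a, the hepatocyte nuclear receptor, had 1207 in the input and 18.3 in the immunoprecipitate (−6.04). Chromatin regulators had a row in 21 of 52 (19.9 at the shares of their levels), with a median level-relative ratio of −0.42. Immediate early and short-lived regulators had one in 14 of 28 (9.67 at the shares of their levels), with a median of 0.05 and Id2 highest (169 and 55.6, −1.60). Core clock genes had one in 10 of 17, against 5.74, yet only Clock was above its level median (191 and 7.39, −4.69), and none of the 10 reached an immunoprecipitate mean of 10.

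Splicing regulators had rows more often than their input levels: 31 of 48, against 18.6 at the shares of those levels, with a median level-relative ratio of 0.33. Tra2a had 54.2 in the input and 29.7 in the immunoprecipitate (−0.87), and Srrm2, a scaffold of nuclear speckles, 431 and 4.48 (−6.59). Translation factors (16 of 38, against 16.0) and proteasome subunits (16 of 33, against 13.8) had rows at about the shares of their levels. Eef2, the elongation factor, had 1480 and 9.10 (−7.35).

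Genes of the m6A machinery were mostly without a row, as were most genes at their input levels. Of 13 writers, cofactors and demethylases measured in the input, 1 had a row, against 4.16 at the shares of their levels. That was Zcchc4, an rRNA methyltransferase, at 19.7 and 1.48. Mettl3 (23.4), Pcif1 (35.7), Alkbh5 (211), Rbm15 (97.5), 1110037F02Rik, now Virma (80.1), and Fto (55.8, pooled over wild type and knockout) had none. Mettl14, which the table names G430022H21Rik, had an input mean of 12.8 and no row. Of 8 readers 2 had a row, near the 2.97 at the shares of their levels: Ythdc1 (53.2 and 6.35, −3.07) and Hnrnpa2b1 (203 and 27.9, −2.86), while Ythdf2 (51.9) did not. Among common reference genes, Actb had 1228 and 8.55 (−7.17), and Gapdh 68.3 and 5.12 (−3.74), with many Gapdh pseudogenes that may share reads.

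Markers of other liver cell types had rows at about the shares of their input levels or somewhat more often. Of 16 macrophage markers 8 had a row (5.75 at the shares of their levels) and 1 had an immunoprecipitate mean of 10 or more, Fcer1g. Clec4f, the Kupffer cell lectin (240), and Cd5l (189) had none. Endothelial markers had a row in 5 of 14 (5.53 at the shares of their levels) and stellate cell markers in 4 of 11 (4.11), with median level-relative ratios of −0.67 and −0.85.

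Because the antibody also binds m6Am at the cap, genes were divided by the base at the annotated start of transcription, from RefSeq promoters on build GRCm38.p6. A promoter matched 7262 of the 9108 input names and 2626 of the 3298 members, by current symbol. Windows of 30 bases around the start are shown for 4 of the 5 highest and 4 of the 5 lowest ratios among genes with an input mean of 1000 or more and a single annotated promoter, and for the 3 highest ribosomal protein genes, to show which start bases stand at either end. They run 5′ to 3′ on the gene's strand, and the capital letter marks the annotated first base of the transcript.
B2m (chr2:122147667-122147696, plus strand): cgcgccctggctggctctcaTttcagtggc
Serpina1e (chr12:103956888-103956917, minus strand): gactaggacagggctctgtcTcctcagcct
Es1 (chr8:93131274-93131303, minus strand): gcagacacctccctgtctctAagagctcct
Mup3 (chr4:62087308-62087337, minus strand): accagagagtatataaggacAagcaaagga
Cyp2e1 (chr7:140763799-140763828, plus strand): tgtttctcctcaggaaattcCtacaaattt
Fga (chr3:83026133-83026162, plus strand): agggttggagctgtgagtgcAgtcagtcct
Vtn (chr11:78499100-78499129, plus strand): actgactttggtcttggcgaGggttttctg
C3 (chr17:57228127-57228156, minus strand): tgcaggaacagggagggaccAgagaggaga
Rpl36al (chr12:69184058-69184087, minus strand): gttcgcattcccgtcgctcaGgttcagttc
Rps25 (chr9:44407694-44407723, plus strand): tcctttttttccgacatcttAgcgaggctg
Rpl38 (chr11:114668560-114668589, plus strand): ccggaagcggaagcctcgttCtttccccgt
The 4 high ones begin with T (B2m and Serpina1e) or A (Es1, now Ces1c, and Mup3), with log2 ratios from −0.36 to −2.86. The 4 low ones begin with C (Cyp2e1), A (Fga and C3) or G (Vtn), with log2 ratios from −9.32 to −10.34. The ribosomal protein genes start with G, A and C.

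Genes starting with A had an immunoprecipitate row more often than other genes at input levels under 1000, and higher median ratios at 1000 and over. Of 2060 input genes with A at the start 40.8% had a row (exact 95% binomial interval 38.6% to 42.9%), against 36.8% at the shares of their input levels. Of 5202 genes with another start base 34.3% had one (33.0% to 35.6%), against 35.9% at the shares of their levels. By base the shares were 35.3% for C, 33.7% for G and 35.9% for T. The difference between A and other bases was 6.44 percentage points. At input means from 10 to 30 the shares were 30.6% for A and 25.4% for others, from 30 to 100 they were 36.7% and 32.3%, and from 100 to 300 they were 55.6% and 45.8%. They were 70.9% and 64.4% from 300 to 1000, and 85.4% and 89.2% among the 113 genes at 1000 or more, where the order was turned. With an immunoprecipitate mean of 10 or more counted as a row, the difference was 2.75 points.

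The base before the start went with this share too. When A followed C, the order of an initiator, 42.7% of 1401 genes had a row, and when A followed another base 36.7% of 659 did. Both groups had nearly the same share at their input levels, 36.8% and 36.9%. The order held at each input level under 1000. Among genes with an input mean of 1000 or more it was turned, at 83.9% of 31 and 88.2% of 17. Genes with C followed by 4 pyrimidines, the start of terminal oligopyrimidine mRNAs, had a row in 36.0% of 161 cases, against 35.0% at their levels. Such a start is annotated for 2.49% of all promoters in the RefSeq table and for 8 of 39 ribosomal protein genes. RefSeq gives 1 start for most genes and the start used in liver may differ, so these are groups by annotation.

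Among members the median log2 ratio was −3.70 for A, −3.61 for C, −3.78 for G and −3.71 for T, and A minus other bases was 0.04. That sign is not stable: it was −0.01 with the median of a gene's transcripts and −0.24 among members with an immunoprecipitate mean of 10 or more. Among genes with an input mean of 1000 or more the medians were further apart, at −4.86 for 41 genes with A and −6.08 for 58 with another base, a difference of 1.22. The quartiles there, −7.31 and −3.45 for A and −7.61 and −5.02 for other bases, overlap. Of the 99 genes with a ratio and a start base there, 41 start with A, and A starts 18 of the 25 highest ratios and 10 of the 25 lowest. This count was chosen after the ratios were seen.

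Gene span, the distance from annotated start to end, went with the share of genes that had an immunoprecipitate row. Spans were found for 8947 input genes. In the shortest quartile (median span 6310 bases) 45.2% of genes had a row (exact 95% binomial interval 43.2% to 47.3%), and in the second 37.1% (35.1% to 39.1%). The third had 34.7% (32.7% to 36.7%) and the longest quartile, with a median span of 106693 bases, 27.5% (25.7% to 29.4%). At the shares of their input levels all quartiles would lie between 35.8% and 36.6%. The order of shortest over longest held at each input level: 34.4% and 16.8% from 10 to 30, 45.3% and 24.0% from 30 to 100, 58.2% and 43.3% from 100 to 300, and 78.2% and 56.8% from 300 to 1000. At 1000 or more it was 45 of 50 and 14 of 19 genes, in quartiles set over all input levels.

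Pooled over input levels, median level-relative ratios of members fell with span in the same order, at 0.31, −0.07, −0.14 and −0.25. Within single input levels this order did not always hold. At an input mean of 1000 or more the medians were 0.27, −0.22, −0.15 and 0.26 from shortest to longest. At the lowest input level they were 0.16, −0.13, −0.07 and −0.10. At the levels between, the order held. Without ribosomal protein genes the shortest quartile still had 44.9%, and without genes with a named pseudogene 44.8%. Within every quartile of span the share was higher for A than for other start bases, at 50.8% and 42.6%, 40.6% and 35.1%, 38.9% and 33.9%, and 32.7% and 25.7% from shortest to longest. The span includes introns, and mRNA length was not used here. The labels do not state how intron reads were counted, and their part was not tested.

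**Figure D5:**
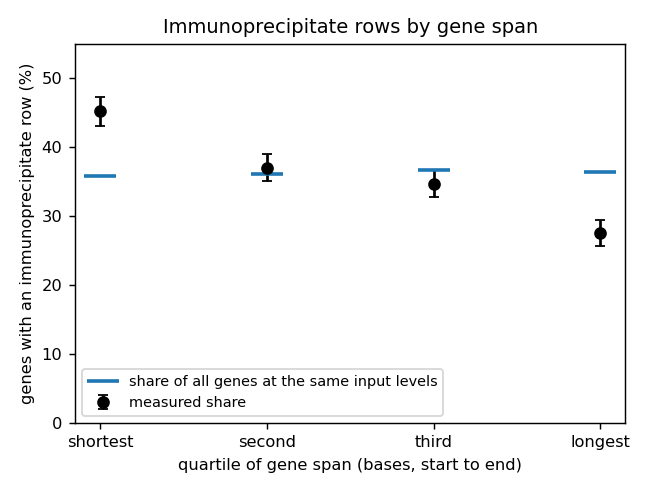
Share of input genes with an immunoprecipitate row by quartile of gene span (dots, exact 95% binomial intervals), with the share of all genes at the same input levels (blue lines). The share falls from 45.2% to 27.5% while the share at the same input levels stays between 35.8% and 36.6%.

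Genes with no small RNA gene inside had a row in 36.2% of cases, and this share lay within the intervals of hosts of snoRNA, snRNA and miRNA genes. Of 238 genes with a snoRNA gene inside 38.7% had a row (exact 95% binomial interval 32.4% to 45.2%). Of 174 with a snRNA gene 33.3% had one (26.4% to 40.9%), and of 454 with a miRNA gene 32.6% (28.3% to 37.1%). Of 13 with a tRNA gene 7 did. At the shares of their input levels snoRNA hosts would have 37.1%, snRNA hosts 36.8% and miRNA hosts 37.13%. The last value lies just above the miRNA interval, which ends at 37.12%. These hosts are long, with median spans of 53736, 76488 and 40016 bases for the first 3 kinds against 24933 for genes with none inside. The median level-relative ratios of snoRNA, snRNA and miRNA hosts were −0.27, −0.16 and −0.04. Ank1, which holds Mir486, stood at 13.4 in the input and 105 in the immunoprecipitate, by the transcript with the highest mean.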

How the data were processed

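Per the labels, total RNA from liver was DNase-treated and made into miCLIP immunoprecipitate and input libraries. Both deposited tables give a mean signal per feature, which per the file headers is a DESeq2 mean of read counts divided by size factors, by transcript in the immunoprecipitate and by gene in the input. They also give the authors' standard error of the log2 fold change, headed lfcSE, which was taken to be between genotypes. The submitters' processing notes name STAR, bedtools 2.25.0, DESeq2 and the build mm10, without parameters. Depth per library is unknown, so counting error of single genes could not be computed, and 0 other columns of per-sample values were present.

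Tables were joined on the name, keeping the transcript with the highest immunoprecipitate mean, at an input mean of 10 or more (Python 3.11.15, pandas 2.3.3, scipy 1.17.1). No test was run, since each gene has 1 ratio. The code was tested on simulated data. Members, gene lists and comparisons were chosen with earlier results of these data known, and level-relative ratios, the 1000 limit, span and pseudogene groups after seeing these values. Named genes were the 12 highest and 12 lowest ratios at an immunoprecipitate mean of 10 or more, the 10 highest input means without a row, extremes and abundant members of the lists, and fixed genes; others were chosen after their values were seen. Alternatives varied the transcript rule, both minimums, the joining, a pseudocount of 1 and the scaling. Protein length, exon number and internal motifs were not analysed here. Some genes and sequences that these rules select are not reported here.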

Additional observations from a re-analysis of the deposited data

Results flagged for a closer look

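The immunoprecipitate table held 963 protein-coding names with no protein-coding input row of the same name, so they enter no ratio. This is signal outside the main measurement. Their median immunoprecipitate mean was 4.59, and 188 had a mean of 10 or more. The highest were mt-Co2 (1391) and mt-Co3 (1326), both subunits of cytochrome oxidase encoded in mitochondria. A further 541 names had an input mean under 10.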

How the results depend on the processing

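The median log2 ratio (−3.72) was −3.44 with the sum of a name's transcripts, −3.41 with 1 added to both means, −3.36 at an input mean of 1 or more, −5.00 at 100 or more, −5.92 at 1000 or more, −2.96 at an immunoprecipitate mean of 10 or more and −0.0692 with each table scaled to its protein-coding sum. The share without a row (63.8%) was 69.0%, 44.2% and 11.5% at input means of 1, 100 and 1000 or more, and 92.1% with an immunoprecipitate mean of 10 counted as a row. The Spearman correlation (0.325) was 0.284 with summed transcripts, 0.392 at an input mean of 100 or more and 0.245 at 1000 or more. For start base A minus others, the median difference (0.04) was −0.24 at an immunoprecipitate mean of 10 or more and 1.22 at an input mean of 1000 or more. The difference in shares with a row (6.44 points) was 10.6 at an input mean of 100 or more, 2.75 at an immunoprecipitate mean of 10 or more and −3.81 at an input mean of 1000 or more. The shortest minus the longest quartile of span (17.7 points) was 8.54 at an immunoprecipitate mean of 10 or more and 5.26 at an input mean of 1000 or more, with quartiles set anew among the genes kept.

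Of 24 lists 4 had medians above all members, against 11 of 20 at an input mean of 100 or more and 14 of 24 with level-relative ratios. Medians that changed sign at an input mean of 100 or more were those of plasma proteins (0.34), fatty acid oxidation (0.47), glucose genes (0.0457), proteasome subunits (0.35), nuclear respiratory chain subunits (0.75), cytochrome P450 (0.42), immediate early genes (0.69) and translation factors (0.57). At an immunoprecipitate mean of 10 or more they were proteasome (0.30) and respiratory chain subunits (0.30). At an input mean of 1000 or more they were plasma proteins (0.98), apolipoproteins (0.42) and amino acid breakdown (0.21). With level-relative ratios they were plasma proteins (1.21), apolipoproteins (0.42), complement (0.40), fatty acid oxidation (0.18), transcription factors (0.0833), proteasome subunits (0.0922), respiratory chain subunits (0.46), cytochrome P450 (0.55), immediate early genes (0.0502) and translation factors (0.53). Splicing regulators changed sign at an input mean of 1 or more (−0.0626), cytochrome P450 with the median of transcripts (0.0181), and respiratory chain subunits with summed transcripts (0.29) and without genes with a named pseudogene (0.0183). The cause was not tested. Of the named genes' values under alternatives 187 moved little, 49 moved further and 0 changed sign; Ank1 went from 6.68 to 0.65 above the median of members with the median of its transcripts. No paired analysis was possible because the means pool all libraries and each group is 1 sample; for the same reason no replicate could be left out.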

Other observations

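High ratios were often neighbours on a chromosome. Of the 30 highest ratios among 695 genes with coordinates and an immunoprecipitate mean of 10 or more, 14 (46.7%) had another of the 30 within 100 kb. Of the 665 other genes, 23 (3.46%) had one of the 30 that near. Some pairs were gene families with shared sequence, such as Serpina1a with Serpina1c and Mup1 with Mup2. Others were unrelated genes, such as Fcer1g with Tomm40l and Atp8b2 with Hax1. On chromosome 12 of GRCm38.p6, Klhdc2 and Sdccag1, now Nemf, were another such pair. Rpl36al was also among the 30, but with none of the others within 100 kb. Pole2 and Klhdc1 had no input row of the same name and so no ratio. Rpl36al (69182734 to 69184067), Pole2, Klhdc1, Klhdc2 and Nemf lie between Rn7s1 (69159295 to 69159593) and Rn7s2 (69361183 to 69361481). Rn7s1 and Rn7s2 encode the RNA of the signal recognition particle. How reads of such RNAs bear on their neighbours was not tested.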
